A study of Homo sapiens with 4 samples.

Results

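The mRNAs of 9 genes of the PI3K, AKT and mTOR pathway were followed in RNA immunoprecipitates of KIAA1429. The genes were PIK3CA, PIK3R1, PIK3R2, PDPK1, AKT1, AKT2, MTOR, RPTOR and RICTOR, and they were chosen by name so that AKT2 is seen beside its pathway. They are 9 of the 13300 gene names in the deposited tables and hold 36 of the 34975 listed transcripts. Of these 36 transcripts, 29 are typed as protein_coding and 7 as processed_transcript. RNA immunoprecipitation with sequencing (RIP-seq) was done in HCCLM3 cells, a human hepatocellular carcinoma line, to find the mRNAs bound by KIAA1429. There were 2 libraries from precipitation with an antibody to KIAA1429 (KIAA1429 RIP) and 2 from precipitation with IgG, the control for RNA that sticks to antibody and beads (IgG RIP). Neither group carried a genetic change or a drug treatment in the labels, so the antibody is the difference between them. The labels do not say whether replicates came from separate cultures, so p-values measure only the spread between these libraries, which may be technical.

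The pathway carries signals from insulin and growth factor receptors to cell growth. Class I PI3 kinase, a catalytic subunit held by a regulatory subunit, makes the lipid PIP3 at the membrane, where PDK1 (the product of PDPK1) phosphorylates AKT. AKT relieves the block of the TSC complex on mTORC1, the mTOR complex built on Raptor, while the complex built on Rictor, mTORC2, phosphorylates AKT in turn. KIAA1429, also named VIRMA, is a large subunit of the m6A methyltransferase complex and is known to direct methylation towards stop codons and 3′ untranslated regions (3′UTRs). The core of the sequence that the enzyme methylates is often GGAC, with the methyl group on the A.

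The values are FPKM, fragments per kilobase of transcript scaled to 1000000 fragments in a library, so levels can be compared between genes per length. A gene total is the sum of the FPKM of a gene's listed transcripts. FPKM is a share of each library, so a difference between groups says how large a share of the precipitated RNA an mRNA was, not how much was precipitated. No library of the input RNA was analysed here, and in bulk RNA a smaller number of cells holding an mRNA and less of it per cell cannot be told apart. All 8 hepatocyte and hepatoma markers checked were listed, with AFP between 99.1 and 128 FPKM and KRT18 between 820 and 1048. Of 8 markers of blood, vessel and stroma, PTPRC, PECAM1, VWF, COL1A1 and COL1A2 were not listed, and the sum of the 3 others (CD68, LYZ and ACTA2) was 72.8 and 105 FPKM in the IgG libraries, against 56.9 and 96.4 in the KIAA1429 libraries. The tables give no read counts. The low values of genes with 1 transcript clustered at multiples that would correspond to about 1990000 and 1490000 counted fragments in the IgG RIP libraries and 1760000 and 1970000 in the KIAA1429 RIP libraries. At those steps 42.8% to 45% of 600 low values per library were whole within 0.05, against a median of 6.33% to 7% over all steps tried, so the fragment numbers given are estimates, and they are not scaled for depth. Every listed transcript had a group mean of at least 0.5 FPKM in one of the groups, so transcripts under that level are missing from the totals.

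No member passed the test for a difference between KIAA1429 RIP and IgG RIP, and neither did any other gene total. AKT1, RPTOR, PDPK1 and PIK3R1 lay lower in both KIAA1429 RIP libraries than in both IgG RIP libraries, RICTOR lay higher in both, and PIK3CA, PIK3R2, AKT2 and MTOR overlapped. So 1 of 9 totals lay apart upwards and 4 of 9 downwards, where 16.6% and 15.2% of the 11361 gene totals with a mean of at least 1 FPKM did so. With 2 libraries against 2, the smallest two-sided p of an exact permutation test of 1 gene is 0.333, so limma, which borrows the spread of all features, was used. None of the 9 group means differed 2-fold. Between the KIAA1429 RIP libraries themselves 2 members, PIK3R2 and MTOR, differed at least 2-fold. Single libraries vary more than group means, so these counts are on unlike scales.

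**Figure D1:**
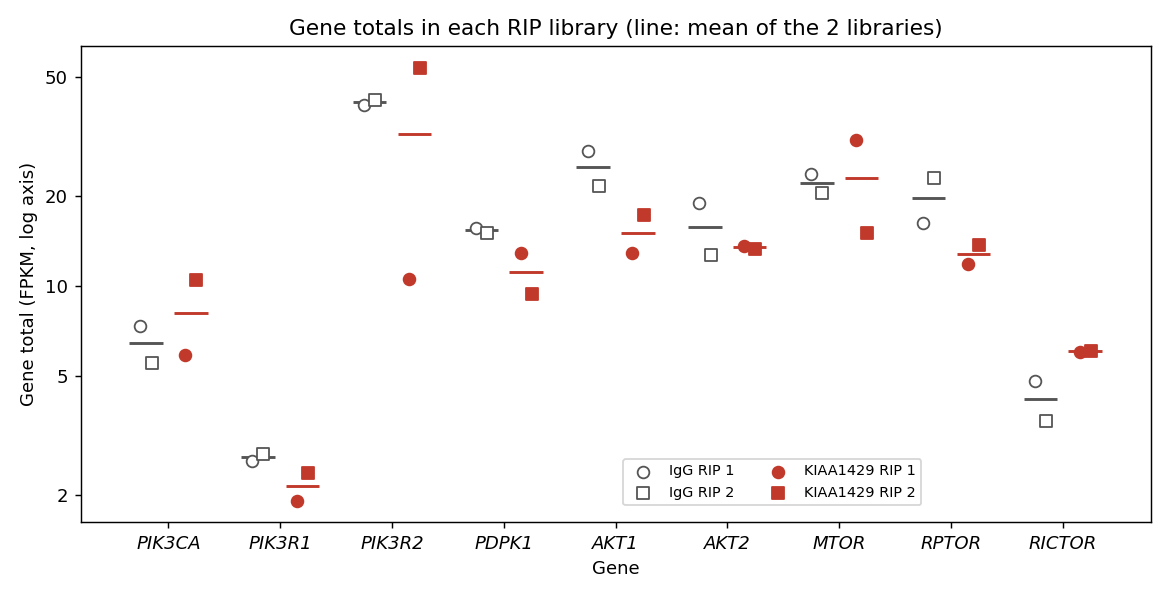
Gene totals of the 9 members in FPKM on a log axis, with a point for each library and a line at the mean of each group. The KIAA1429 RIP points of AKT1, RPTOR, PDPK1 and PIK3R1 lie below both IgG RIP points, those of RICTOR lie above, and the PIK3R2 points of KIAA1429 RIP stand at 10.6 and 53.9 FPKM.

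In IgG RIP the order of mean levels was PIK3R2 (41.2 FPKM), AKT1 (25.02), MTOR (22.2), RPTOR (19.7), AKT2 (15.8), PDPK1 (15.4), PIK3CA (6.44), RICTOR (4.19) and PIK3R1 (2.67). The neighbours from AKT1 down to PDPK1 overlapped in their values. PIK3R2 at the top and PIK3CA, RICTOR and PIK3R1 at the bottom did not overlap with their neighbours. The gap between PIK3CA and RICTOR needed PIK3CA-204, a transcript of 245 bases. PIK3CA-201 alone, at 4.44 and 2.45 FPKM with IgG, overlapped with the RICTOR total. In KIAA1429 RIP the order was PIK3R2 (32.2 FPKM), MTOR (23.0), AKT1 (15.1), AKT2 (13.5), RPTOR (12.8), PDPK1 (11.2), PIK3CA (8.16), RICTOR (6.05) and PIK3R1 (2.14). There each gene from PIK3R2 down to PIK3CA overlapped with the next one, and only PIK3R1 stood clear of its neighbour.

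PIK3CA (chr3:178865902-178957881, plus strand, GRCh37/hg19 as all coordinates here) encodes p110-alpha, the catalytic subunit that makes PIP3. Its total was 7.36 and 5.52 FPKM with IgG, and 5.87 and 10.4 FPKM with the KIAA1429 antibody. The groups overlapped, with KIAA1429 RIP replicate 2 the highest of the 4. The full-length transcript, PIK3CA-201, was 4.44 and 2.45 FPKM in the IgG libraries, against 2.73 and 2.17 FPKM in the KIAA1429 libraries. The rest of the total came from PIK3CA-204, a transcript of 245 bases, at 2.92 and 3.08 FPKM with IgG, and 3.14 and 8.28 FPKM with the KIAA1429 antibody. Those values would correspond to 1.42, 1.13, 1.36 and 3.99 fragments, so the high total in KIAA1429 RIP replicate 2 rested on a few fragments on a short transcript. With depth-scaled fragment numbers (FPKM times transcript length) in place of FPKM, the log2 fold change of PIK3CA turned from 0.26 to -0.37. The annotation puts exons of KCNMB3, on the opposite strand and not listed in the tables, over 36.3% of the exonic bases of PIK3CA, and whether counting used strand is not given in the sources used here.

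PIK3R1 (chr5:67511548-67597649, plus strand) encodes p85-alpha, the regulatory subunit that stabilises and restrains p110. It had a single listed transcript, PIK3R1-211, at 2.60 and 2.75 FPKM in the IgG libraries, against 1.92 and 2.36 FPKM in the KIAA1429 libraries. Both values with the KIAA1429 antibody were lower, and the means differed by -0.535 FPKM (KIAA1429 RIP minus IgG RIP, pooled SD 0.235 FPKM, n = 2 and 2). The estimated fragment numbers were 36.1 and 28.6 with IgG, and 23.6 and 32.4 with the KIAA1429 antibody. Scaling these for depth returns FPKM times the length of the single transcript, so it cannot change the order of the libraries.

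PIK3R2 (chr19:18263928-18281350, plus strand) encodes p85-beta, another regulatory subunit. Its total was 40.4 and 42.1 FPKM in the IgG libraries, against 10.6 and 53.9 FPKM in the KIAA1429 libraries. The IgG RIP libraries were alike, and the KIAA1429 RIP libraries were the lowest and the highest of the 4. PIK3R2-201 made up 97.5% to 100% of the total and would correspond to 311 and 249 fragments in IgG RIP against 74.1 and 420 in KIAA1429 RIP, so the low value was not one of a few fragments. The log2 fold change was -0.75 with all libraries, 0.38 without KIAA1429 RIP replicate 1 and -1.87 without KIAA1429 RIP replicate 2, so the direction hung on which library was kept. An annotated readthrough gene on the same strand, ENSG00000268173, covers 3942 of the 3980 exonic bases of PIK3R2 and was not listed in the tables. IFI30, the downstream gene that it runs into, was listed at 0 in both IgG RIP libraries and at 0 and 4.94 FPKM with the KIAA1429 antibody. Whether fragments were shared with the readthrough gene was not tested.

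PDPK1 (chr16:2587965-2653189, plus strand) encodes PDK1, the kinase that phosphorylates the activation loop of AKT. Its total was 15.7 and 15.1 FPKM in the IgG libraries, against 12.96 and 9.43 FPKM in the KIAA1429 libraries. The KIAA1429 RIP libraries were the lowest of the 4, with a mean 0.727 times that of IgG RIP. PDPK1-202, the full-length transcript, held 82.7% to 100% of the total. It was lower in both KIAA1429 RIP libraries too, at 12.3 and 9.43 FPKM against 15.7 and 12.5 FPKM. The rest came from PDPK1-208, a processed transcript of 511 bases. It was 2.61 FPKM in IgG RIP replicate 2, about 1.99 fragments, and 0.686 FPKM in KIAA1429 RIP replicate 1. Of the 50-base words of PDPK1-202, 14.1% also occur in PDPK2P-201, the listed transcript of a near copy, at 2.71 and 1.45 FPKM with IgG, and 2.61 and 2.01 FPKM with the KIAA1429 antibody, so the split between these genes is uncertain. Estimated fragments were 224 and 136 in the IgG libraries, against 156 and 133 in the KIAA1429 libraries. A noncoding gene on the opposite strand, ENSG00000261093, which was not listed, covers 24.7% of the exonic bases of PDPK1.

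Among the kinases that PDK1 activates, AKT1 and AKT2 carry a GGAC close behind the stop codon, and PIK3R2 and PDPK1 have one beside theirs too. These windows of 30 bases are shown because they lie near the stop codon, where KIAA1429 is known to direct methylation, and that of RICTOR is shown as a contrast, since it lies far from it. The capitals mark the GGAC closest to the stop codon in the longest listed coding mRNA, read 5′ to 3′ on the strand of the gene from GRCh37. The A lies 10 bases after the stop codon in PIK3R2, 12 after it in AKT1, 21 after it in AKT2 and 14 before it in PDPK1. In RICTOR the nearest one lies 592 bases before the stop codon. The AKT2 window is that of AKT2-206. AKT2-234, the most abundant AKT2 transcript in both IgG RIP libraries, has its 3′ end at chr19:40740405 and does not reach it.
PIK3R2, chr19:18280099-18280128, 3′UTR: cgctgagcaccgaGGACccgccccaagcag
PDPK1, chr16:2647737-2647766, coding: accagagccacccGGACgccgctgtgcagt
AKT1, chr14:105236652-105236681, 3′UTR, minus strand: ctgaggcggcggtGGACtgcgctggacgat
AKT2, chr19:40739744-40739773, 3′UTR, minus strand: ctgcccacgcagaGGACgcacgctcgctgc
RICTOR, chr5:38945679-38945708, coding, minus strand: tacagaagacactGGACtacaggaacatac
GGAC, searched on the sense strand within 200 bases on either side of the stop codon, occurred in 7 of the 9 members, all but RPTOR and RICTOR, and in 78.7% of 9798 genes. A match of these letters says nothing of methylation, which was not measured in these libraries, or of binding at that place.

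AKT1 (chr14:105235686-105262080, minus strand) encodes the AKT kinase found in nearly all tissues. Its total was 28.3 and 21.7 FPKM with IgG, and 12.96 and 17.3 FPKM with the KIAA1429 antibody. The groups did not overlap, and the KIAA1429 RIP mean was 0.604 times that of IgG RIP, the lowest ratio of the 9 members. The difference of the means was -9.90 FPKM (KIAA1429 RIP minus IgG RIP, pooled SD 3.97 FPKM, n = 2 and 2). The log2 fold change was -0.69 (95% interval -1.498 to 0.114), with an unadjusted p of 0.082 and an adjusted p of 0.997 by limma with Benjamini-Hochberg adjustment. With depth-scaled fragment numbers, which for AKT1 cover 3 of its 7 transcripts, the groups overlapped and the log2 fold change was -0.33. A noncoding gene on the opposite strand, ENSG00000258430, which was not listed, covers 15.9% of the exonic bases of those transcripts.

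The 7 listed AKT1 transcripts did not hold still between replicates. AKT1-214 (8.003 FPKM), AKT1-215 (8.68 FPKM) and AKT1-217 (2.24 FPKM) were above 0 in IgG RIP replicate 1 alone, and AKT1-207 (3.81 FPKM, 22.1% of the total) in KIAA1429 RIP replicate 2 alone. AKT1-203 was listed at 0 and 8.56 FPKM in the IgG libraries, against 0 and 5.65 FPKM in the KIAA1429 libraries. AKT1-208 was 0.833 and 8.49 FPKM with IgG, and 8.85 and 3.26 FPKM with the KIAA1429 antibody, and AKT1-213 was 8.59 and 4.64 FPKM against 4.10 and 4.56 FPKM. AKT1-213 was thus the only AKT1 transcript with both KIAA1429 RIP values below both IgG RIP values. The make-up of AKT1 differed by 75.7% of the total between the IgG RIP libraries and by 54.8% between the KIAA1429 RIP libraries, where a mean of 51.0% separated libraries of different groups. Only 3 of the 7 AKT1 transcripts could be compared base by base. AKT1-214 holds no base that no other of them has, and AKT1-203 holds at most 265 of its 2779 as its own. So few of the bases of these transcripts tell them apart.

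**Figure D2:**
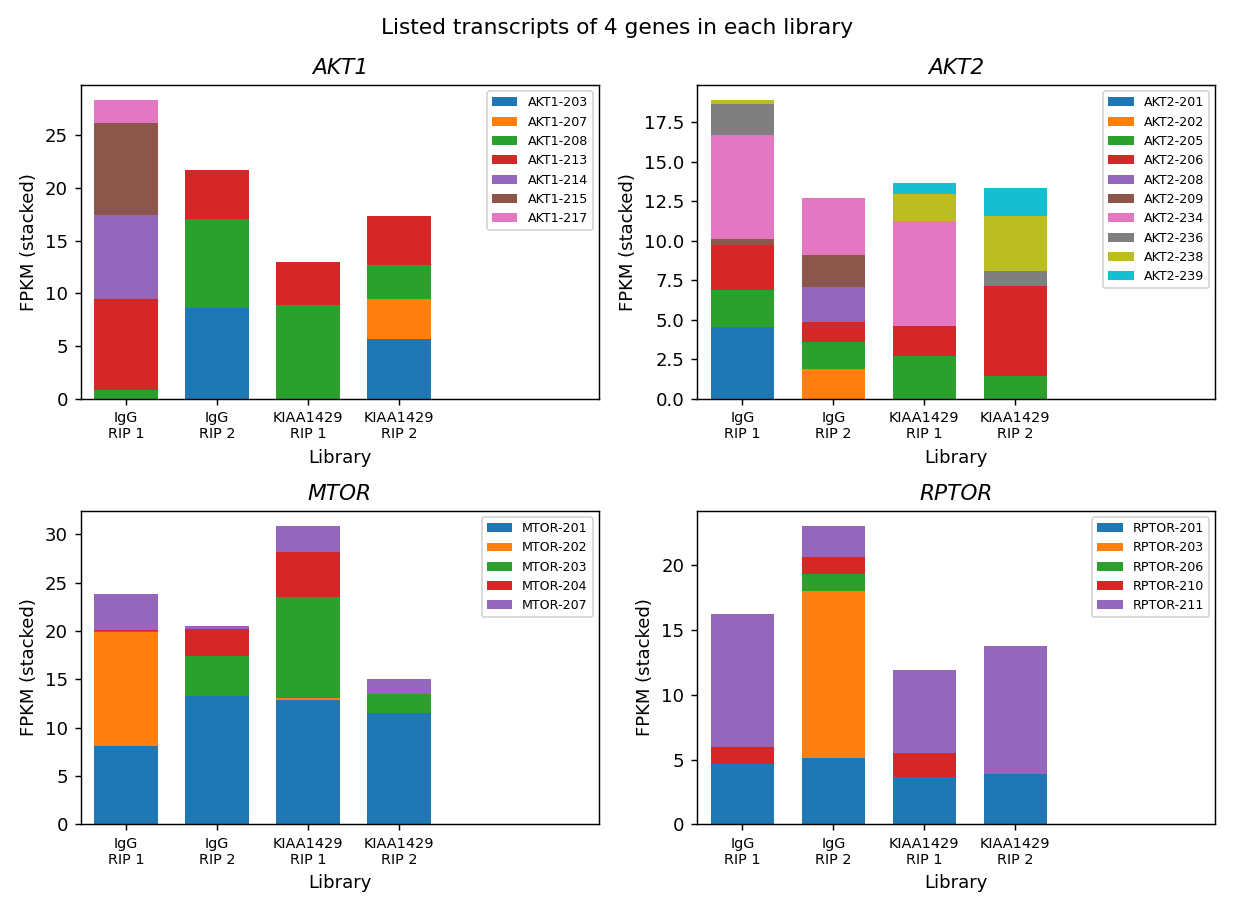
FPKM of each listed transcript of AKT1, AKT2, MTOR and RPTOR, stacked for each of the 4 libraries, so that a bar's height is the gene total. AKT1-214, AKT1-215 and MTOR-202 fill much of the IgG RIP 1 bars, RPTOR-203 (12.9 FPKM) appears in IgG RIP 2 alone, and AKT2-206 takes the largest part of AKT2 in KIAA1429 RIP 2.

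AKT2 (chr19:40736224-40791302, minus strand) encodes the AKT kinase best known for insulin action on glucose uptake and for its place in liver metabolism. Its total was 18.9 and 12.7 FPKM in the IgG libraries, against 13.6 and 13.3 FPKM in the KIAA1429 libraries. The KIAA1429 RIP libraries were close together and lay between the IgG RIP libraries, so the groups overlapped. The log2 fold change was -0.19 (95% interval -1.04 to 0.66), with an unadjusted p of 0.608 and an adjusted p of 0.997 by limma. On this scale the interval leaves room for a 2-fold lower level but not for a 2-fold higher one. Without IgG RIP replicate 1 the value was 0.08. After median scaling of the libraries, or with protein_coding transcripts alone, AKT2 lay lower in both KIAA1429 RIP libraries. The protein_coding sum differs from the total only by leaving out AKT2-238. In KIAA1429 RIP that transcript was 1.74 and 3.51 FPKM, about 2.01 and 4.52 fragments.

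AKT2 had 10 listed transcripts, the most of the 9 members. AKT2-206, the longest at 5250 bases, 3555 of them 3′UTR, was 2.85 and 1.23 FPKM in the IgG libraries, against 1.96 and 5.65 FPKM in the KIAA1429 libraries. AKT2-234 was the most abundant in 3 libraries, at 6.58 and 3.63 FPKM in IgG RIP and 6.60 FPKM in KIAA1429 RIP replicate 1, and was listed at 0 in KIAA1429 RIP replicate 2. AKT2-205 was above 0 in every library, with 2.38 and 1.77 FPKM with IgG, and 2.67 and 1.46 FPKM with the KIAA1429 antibody. In KIAA1429 RIP replicate 2 AKT2-206 took 42.4% of the total, against 15.1% and 9.63% in IgG RIP and 14.4% in the other KIAA1429 RIP library.

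AKT2-209, AKT2-238 and AKT2-239 were at least 2-fold apart in all comparisons between libraries of the 2 groups. Each reached the listing level of 0.5 FPKM only through the group where it was higher, so the listing favoured such differences. AKT2-238 also reached the limma filter of 1 FPKM through its KIAA1429 RIP values. The share of all listed transcripts that meet this rule was not computed. At the looser rule of both KIAA1429 RIP values above or below both IgG RIP values it was 13.1% and 13.2%. AKT2-238, a processed transcript of 655 bases, was 0.285 and 0 FPKM in the IgG libraries, against 1.74 and 3.51 FPKM in the KIAA1429 libraries. AKT2-239 was listed at 0 in both IgG RIP libraries and at 0.674 and 1.72 FPKM in KIAA1429 RIP, and AKT2-209 at 0.357 and 2.01 FPKM in IgG RIP and at 0 in both KIAA1429 RIP libraries. AKT2-238 was the only one of the 3 with a mean of at least 1 FPKM, and its log2 fold change was 1.63 (95% interval -0.45 to 3.71), with an unadjusted p of 0.098, the lowest of the member transcripts, and an adjusted p of 0.879 by limma. In fragments, AKT2-238 would correspond to 0.37 and 0 with IgG, and 2.01 and 4.52 with the KIAA1429 antibody, and AKT2-239 to 0.68 and 1.92 in KIAA1429 RIP. AKT2-209 would correspond to 0.57 and 2.40 fragments in IgG RIP, so each of these differences rested on fewer than 5 estimated fragments in any library.

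Short transcripts weigh heavily in the AKT2 total. In estimated fragments AKT2 was 75.0 and 29.3 in the IgG libraries, against 47.7 and 67.7 in the KIAA1429 libraries, of which AKT2-206 held 29.8 and 9.61 with IgG, and 18.2 and 58.3 with the KIAA1429 antibody. Taken as depth-scaled fragment numbers, a choice made after the values were seen, the log2 fold change of AKT2 was 0.16 in place of -0.19. The direction of AKT2 thus changed with the scale. The gene totals most like AKT2 over the 4 libraries were TNPO2, GOLGA2 and RNF169, with root mean square differences of 0.061, 0.062 and 0.066 in log2(FPKM + 1).

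MTOR (chr1:11166592-11322564, minus strand) encodes the kinase shared by both mTOR complexes. Its total was 23.8 and 20.5 FPKM in the IgG libraries, against 30.9 and 15.1 FPKM in the KIAA1429 libraries. The KIAA1429 RIP libraries were the highest and the lowest of the 4, and the group means were 22.2 and 23.0 FPKM. The full-length MTOR-201 varied less, with 8.13 and 13.2 FPKM with IgG, and 12.9 and 11.5 FPKM with the KIAA1429 antibody. The high total in KIAA1429 RIP replicate 1 held 10.5 FPKM of MTOR-203 and 4.69 FPKM of MTOR-204, transcripts of 694 and 862 bases, which would correspond to 12.8 and 7.14 fragments. MTOR-202 was 11.8 FPKM in IgG RIP replicate 1, about 94.0 fragments, and at most 0.199 FPKM in the other libraries. FAM60A, MCMBP and NUP205 had the totals most like MTOR, with root mean square differences of 0.095, 0.106 and 0.140 in log2(FPKM + 1).

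RPTOR (chr17:78518631-78940168, plus strand) encodes Raptor, the scaffold that brings substrates to mTORC1. Its total was 16.3 and 23.1 FPKM in the IgG libraries, against 11.9 and 13.8 FPKM in the KIAA1429 libraries. The groups did not overlap, and the KIAA1429 RIP mean was 0.652 times that of IgG RIP. The separation of the FPKM totals depended on counting RPTOR-203. This transcript, at 12.9 FPKM in IgG RIP replicate 2 and listed at 0 in the other 3 libraries, made up 55.9% of that library's total, and without it the IgG RIP totals were 16.3 and 10.2 FPKM and overlapped with KIAA1429 RIP. RPTOR-203 holds 397 of its 2286 bases as its own and RPTOR-211 321 of its 3633, so the split between them is uncertain. With all transcripts kept, both KIAA1429 RIP totals of RPTOR also lay lower in depth-scaled fragment numbers. The log2 fold change was -0.56 with all transcripts and -1.07 with protein_coding transcripts alone. The protein_coding sum leaves out RPTOR-211 and keeps the 12.9 FPKM of RPTOR-203 in IgG RIP replicate 2. It was not computed without RPTOR-203, so -1.07 is no firmer than -0.56. RPTOR-201, which holds the whole coding sequence, was lower in both KIAA1429 RIP libraries too, at 3.63 and 3.90 FPKM against 4.62 and 5.13 FPKM. RPTOR-211, a processed transcript, was the most abundant elsewhere, at 10.3 and 2.44 FPKM with IgG, and 6.34 and 9.87 FPKM with the KIAA1429 antibody.

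RICTOR (chr5:38938021-39074510, minus strand) encodes Rictor, the scaffold of mTORC2, the complex that phosphorylates the hydrophobic motif of AKT. Its total was 4.83 and 3.55 FPKM in the IgG libraries, against 6.03 and 6.07 FPKM in the KIAA1429 libraries. The KIAA1429 RIP libraries were the highest of the 4, with a mean 1.44 times that of IgG RIP, the highest ratio of the 9 members. The log2 fold change was 0.45 (95% interval -0.593 to 1.499), with an unadjusted p of 0.339 and an adjusted p of 0.997 by limma. RICTOR-202 carried most of it, with 4.83 and 3.55 FPKM with IgG, and 5.38 and 5.63 FPKM with the KIAA1429 antibody. Estimated fragments of the total were 91.5 and 50.5 in the IgG libraries, against 99.0 and 112 in the KIAA1429 libraries. OSMR, on the opposite strand, shares 2.38% of the exonic bases of RICTOR and was listed at 13.5 and 27.9 FPKM with IgG, and 16.7 and 18.7 FPKM with the KIAA1429 antibody.

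RICTOR-201 was listed at 0 in both IgG RIP libraries and at 0.651 and 0.444 FPKM in KIAA1429 RIP, about 8.62 and 6.56 fragments. Its KIAA1429 RIP mean of 0.548 FPKM lay just above the level at which transcripts were listed. It differs from RICTOR-202 within the transcript by 1 further coding exon of 72 bases, exon 32, at chr5:38949458-38949529. Those are the only bases of RICTOR-201 that RICTOR-202 does not have. The 2 junctions are shown because, of the bases listed for RICTOR, only this exon marks RICTOR-201. Capitals mark the bases of exon 32, read 5′ to 3′ on the minus strand.
RICTOR-201, into exon 32: attaacaccaagcagGATCGATTTTAAAAA
RICTOR-201, out of exon 32: AAACAACCTTTTCAGgttcatgaaagcctt
Neither run of 30 bases occurs in RICTOR-202. RICTOR-201 also met the rule of at least 2-fold apart in all comparisons between libraries of the 2 groups. It was listed through KIAA1429 RIP alone, so the listing favoured this. With a mean under 1 FPKM, RICTOR-201 was not tested.

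Over all 36 member transcripts, 2-fold differences were counted between group means and between single replicates. Group means differed at least 2-fold for 18, 5 higher and 13 lower in KIAA1429 RIP, where 26.6% and 28% of all listed transcripts did. Of the 5, 3 were listed at 0 in both IgG RIP libraries, and of the 13, 9 were listed at 0 in both KIAA1429 RIP libraries. Between the IgG RIP libraries 21 member transcripts were at least 2-fold apart, and between the KIAA1429 RIP libraries 16. Single libraries vary more than group means, so these counts are not on the scale of the 18. Their shares over all listed transcripts were not computed. The groups lay apart with KIAA1429 RIP above for 5 transcripts and below for 5, against 13.1% and 13.2% of all listed transcripts. At 0 in at least 1 library were 58.3% of the member transcripts and 55.5% of all listed ones. Of 9 member transcripts above 0 in a single library, 4 were in IgG RIP replicate 1, 4 in IgG RIP replicate 2, 1 in KIAA1429 RIP replicate 2 and 0 in KIAA1429 RIP replicate 1. The most abundant transcript was the same in all libraries for PIK3R2, PDPK1 and RICTOR, 3 of the 8 members with more than 1 listed transcript, and for 43.1% of 7580 genes.

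In the limma test on log2(FPKM + 1), 0 of 9 member totals and 0 of 25 member transcripts averaging 1 FPKM or more passed an absolute log2 fold change of 1 with an adjusted p under 0.05. Over all features 0% of 11361 gene totals and 0% of 23375 transcripts passed. At an unadjusted p under 0.05 there were 0 of 9 member totals and 4.59% of all gene totals, 360 higher and 162 lower. Among transcripts 708 were higher and 545 lower at that level, and 0 of the 25 were members. The log2 fold changes of the members were -0.75 for PIK3R2, -0.69 for AKT1, -0.56 for RPTOR, -0.44 for PDPK1, -0.23 for PIK3R1, -0.19 for AKT2, -0.03 for MTOR, 0.26 for PIK3CA and 0.45 for RICTOR. Which totals lay apart depended partly on how transcripts were summed. PIK3R1, PDPK1 and RICTOR lay apart in the same direction after median scaling, with protein_coding transcripts alone, with the most abundant transcript alone and with depth-scaled fragment numbers. For PIK3R1, with a single listed transcript of type protein_coding, all of these but median scaling keep the order by construction. RICTOR has protein_coding transcripts only, so that setting left its values unchanged. For PDPK1, protein_coding transcripts alone and the most abundant transcript alone are both PDPK1-202, so they hold the same values. There the groups parted narrowly, at 12.3 FPKM in KIAA1429 RIP replicate 1 against 12.5 FPKM in IgG RIP replicate 2. AKT1 overlapped with depth-scaled fragment numbers, and with the most abundant transcript alone RPTOR overlapped and PIK3CA lay higher. For PIK3CA that transcript was PIK3CA-204, of 245 bases and few estimated fragments. Its groups parted at 3.08 against 3.14 FPKM, while the full-length PIK3CA-201 overlapped. The median of the 9 log2 fold changes was -0.23, against 0.02 over all gene totals tested, and the SD of all gene totals was 0.60. Every 95% interval held 0, and adjusted p-values were 0.997 to 0.998 by limma.

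**Figure D3:**
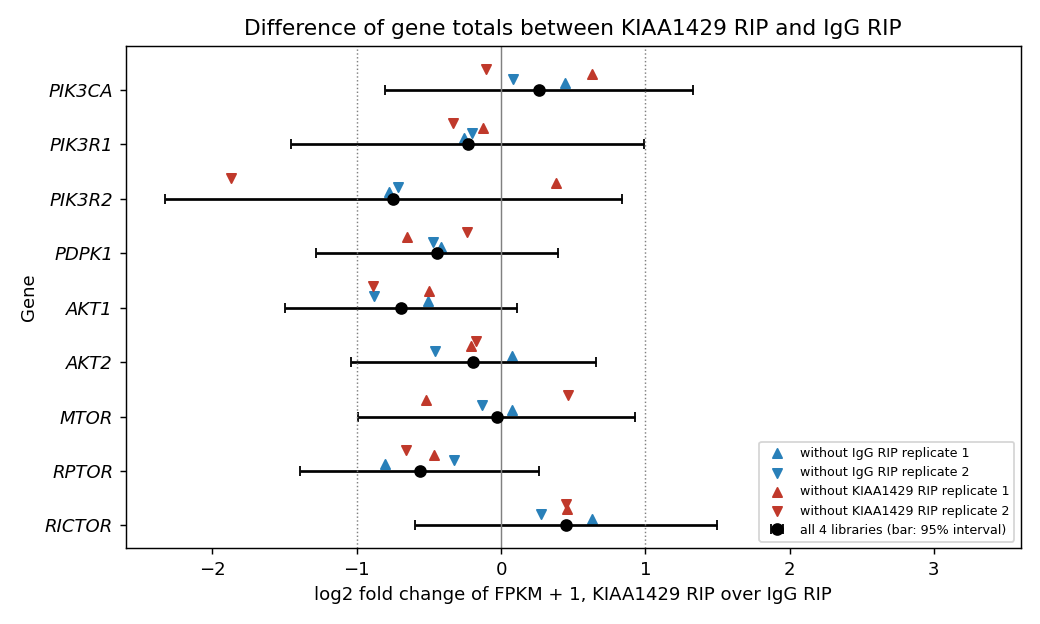
log2 fold change of FPKM + 1 between KIAA1429 RIP and IgG RIP for the 9 gene totals, with the 95% interval of the limma fit as a bar and the value without each library as a triangle. Every bar crosses 0, and the PIK3R2 triangles reach from -1.87 without KIAA1429 RIP replicate 2 to 0.38 without KIAA1429 RIP replicate 1.

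The rest of the pathway was taken from a list of 98 further genes sorted by role, of which 91 were listed and tested and 7 were not listed. None of the 91 was called, 1 was higher and 2 were lower at an unadjusted p under 0.05 (3.30%), and the lowest adjusted p was 0.997 by limma. The KIAA1429 RIP values lay above both IgG RIP values for 9 genes (9.89%) and below for 13 (14.3%). The median log2 fold change was -0.03. All 8 receptors and adaptors, which stand above PI3K, had a value under 0, but 5 of 8 did with depth-scaled fragment numbers, 6 of 8 with the most abundant transcript alone and 6 or 7 of 8 with a library left out. The values ran from -0.78 for GRB2 to -0.12 for IRS2 with a median of -0.34. Of these only IRS1, an insulin receptor substrate, lay apart, at 55.8 and 44.2 FPKM in the IgG libraries, against 34.9 and 38.3 FPKM in the KIAA1429 libraries. The medians of the other roles lay between -0.11 and 0.08.

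The highest values of that list were those of TBC1D7 (1.33), PRR5 (1.22), RRAGB (0.92) and RPS6KB1 (0.91), and the lowest those of RPS6KB2 (-1.03), PRR5L (-1.02), DEPDC5 (-1.02) and WDR24 (-0.87). PRR5L, a protein that binds mTORC2, had the lowest unadjusted p of the list at 0.016 by limma (adjusted p = 0.997), with 22.5 and 24 FPKM in the IgG libraries, against 11.6 and 10.4 FPKM in the KIAA1429 libraries. Its relative PRR5, an mTORC2 subunit, was 3.57 and 0 FPKM with IgG, and 4.57 and 3.47 FPKM with the KIAA1429 antibody, which overlapped. TBC1D7, the third subunit of the TSC complex, was 5.01 and 1.25 FPKM against 5.36 and 12.5 FPKM. RRAGB, a Rag GTPase that brings mTORC1 to the lysosome, was 5.45 and 2.82 FPKM against 8.57 and 8.28 FPKM. The S6 kinase genes stood at opposite ends, with RPS6KB1 at 9.96 and 2.74 FPKM in the IgG libraries, against 12.1 and 10.1 FPKM in the KIAA1429 libraries and RPS6KB2 at 6.57 and 12.5 FPKM against 0.607 and 14.2 FPKM. Without KIAA1429 RIP replicate 1 the RPS6KB2 value was 0.59. DEPDC5 and WDR24, parts of the GATOR complexes that pass amino acid signals on, were 11.3 and 3.32 FPKM against 1.996 and 3.34 FPKM, and 6.10 and 8.51 FPKM against 2.65 and 4.51 FPKM.

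**Figure D4:**
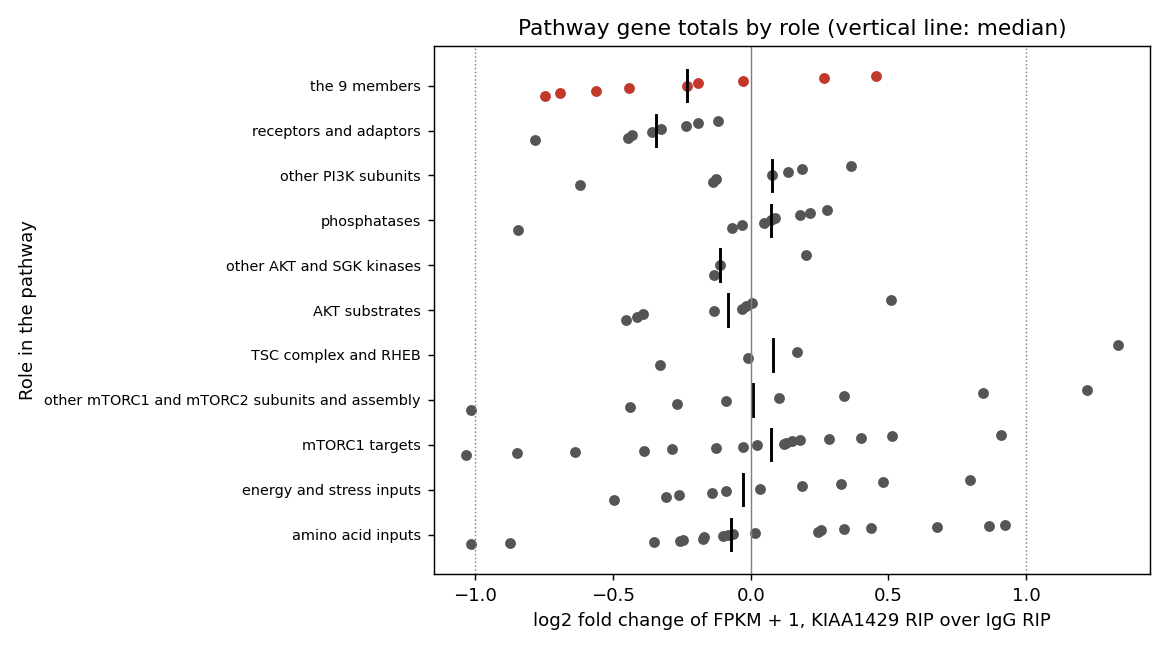
log2 fold change of FPKM + 1 between KIAA1429 RIP and IgG RIP for the 9 members and for the 91 further pathway genes by role, with a point for each gene total and a vertical line at each median. The 8 receptors and adaptors have a median of -0.34, and past the dotted lines at -1 and 1 lie RPS6KB2, PRR5L and DEPDC5 on the low side and TBC1D7 and PRR5 on the high side.

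The mRNAs of the members differed in length and GC content. The longest listed coding mRNA of RICTOR has 9533 bases with 36.5% GC and that of PIK3CA 9259 bases with 35.7% GC, while that of PIK3R2 has 3980 bases with 64.1% GC and that of AKT1 3916 bases with 58.7% GC. Over the 9 members the Spearman correlation of the log2 difference with mRNA length was 0.867, with GC content -0.833 and with GGAC per kilobase -0.817. Without KIAA1429 RIP replicate 1 these values shrank to 0.283, -0.367 and -0.483, and with depth-scaled fragment numbers to 0.367, -0.433 and -0.383. With any other library left out they lay at 0.717 to 0.9, -0.817 to -0.7 and -0.8 to -0.683. These settings were all chosen after the values were seen. Over 9962 genes the correlations were -0.244, -0.132 and -0.101, so the one with length had the opposite sign. All genes share the 4 libraries, and the same 9 mRNAs enter each of the first 3 values, so these are descriptions. GC content also went with the difference between replicates, at 0.268 over all genes for IgG RIP replicate 2 minus replicate 1 and 0.19 for KIAA1429 RIP replicate 2 minus replicate 1. In the coding sequence GGAC occurred 11.8 times per kilobase in AKT1, 9.68 in AKT2, 8.98 in PDPK1, 8.23 in PIK3R2, 7.49 in RPTOR, 5.75 in MTOR, 3.22 in PIK3R1, 2.81 in PIK3CA and 2.73 in RICTOR, against 4.85 over all genes. In the 3′UTR it occurred 6.05 times per kilobase in AKT1, 4.78 in AKT2, 4.42 in RPTOR, 3.23 in PIK3R2, 3.16 in MTOR, 2.61 in PIK3R1, 2.40 in PDPK1, 1.22 in PIK3CA and 1.14 in RICTOR, against 2.51 over all genes.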

How the data were processed

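RIP-seq was measured in HCCLM3 cells, 2 IgG RIP and 2 KIAA1429 RIP libraries, grouped by their labels. The authors deposited FPKM values per transcript for GRCh37/hg19, 1 table per library. Their methods name HISAT2 and the submitters' processing notes list Bowtie2 2.1.0, so the aligner is uncertain. The quantifier is not given in the sources used here. No scaling between libraries was added. Depth was estimated from the step of low values as described, and no counting intervals are given because read counts were not analysed here.

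FPKM values were summed per gene name. Features averaging 1 FPKM or more entered limma 3.58.1 on the scale log2(FPKM + 1) (R 4.3.3, empirical Bayes with trend, two-sided, Benjamini-Hochberg over all features), separately for gene totals and transcripts. A call needed an absolute log2 fold change over 1 with adjusted p below 0.05. Fold changes on this scale understate those of low genes. The script was tested on simulated data. Named were the 9 members, of the wider list any called gene and the 4 highest and 4 lowest log2 fold changes, the 3 totals nearest to AKT2 and to MTOR, the most abundant member transcripts and those 2-fold apart in all library comparisons. IRS1, GRB2, IRS2, IFI30, PDPK2P, OSMR and the remaining transcripts were named after their values were seen. The members and lists were chosen with earlier results of these data known. Transcript lengths and sequences came from GENCODE 44 lifted to GRCh37, in which 31 of the 36 member transcripts matched within 500 bases at both ends. Estimated fragments cover matched transcripts only, so those of AKT1 and PIK3R2 are incomplete. Single values of some genes of the wider list are not reported here. Alternatives are given in the closing section.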

Additional observations from a re-analysis of the deposited data

How the results depend on the processing

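No member total, member transcript or gene of the wider list was called with another pseudocount (0.1 or 0.01), without the filter, with the filter raised to 5 FPKM, after median scaling or quantile normalization, by limma without trend or with any library left out. For gene totals, members and wider list, none was called either with protein_coding transcripts or the most abundant transcript alone or with depth-scaled fragment numbers, settings not run on single transcripts. With a replicate block 0 members, 0 member transcripts and 0 genes of the list were called, and over all gene totals 12 were higher and 1 lower in place of 0. The labels give both groups the numbers 1 and 2 and name no shared batch, and with 2 pairs the deviations of same-numbered libraries correlated at 0.187 over gene totals and 0.030 over transcripts, so the numbers were not taken as pairs. The count of 5 totals with groups apart was 4 with depth-scaled fragment numbers and 5 or 6 with median scaling or the other sums. It was 6 to 8 with a library left out, highest without KIAA1429 RIP replicate 1, where 2 values are set against 1 and 61.6% to 69.6% of all gene totals lay apart in place of 31.8%. Leaving a library out and the fragment numbers were added after seeing the data. The 18 member transcripts at least 2-fold apart became 7 when only the 25 averaging 1 FPKM or more were counted. Of 81 log2 fold changes of members under alternatives, 74 kept their direction. Values left unchanged by construction count among the 74. They are those of the replicate block for every member and of protein_coding transcripts alone for PIK3CA, PIK3R1, PIK3R2 and RICTOR. With a library left out, PIK3CA ranged from -0.10 (without KIAA1429 RIP replicate 2) to 0.63, PIK3R2 from -1.87 to 0.38 (without KIAA1429 RIP replicate 1), AKT2 from -0.46 to 0.077 (without IgG RIP replicate 1) and MTOR from -0.52 to 0.47 (without KIAA1429 RIP replicate 2), with MTOR at 0.073 without IgG RIP replicate 1. With depth-scaled fragment numbers, PIK3CA was -0.37 and AKT2 0.16. The cause was not tested. Of 31 member transcripts with a fragment estimate, 11 had under 5 in every library.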
